A study of Mus musculus with 29 samples.

Results

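The control mouse uterus was compared between gestation day (GD) 1.5 and GD3.5, across every gene that the arrays measured. The members are the arrays titled as uterus, CON, at either day: 3 arrays each, or 6 of the 29 arrays in the series. All were uteri of CD-1 females that had been given corn oil on postnatal days 1 to 5 and were collected in pregnancy as adults. The corn oil was the vehicle of the study's treatment, genistein at 50 mg/kg/day over the same postnatal days (GEN), and the GEN uteri of the same 2 gestation days (4 arrays of the earlier day and 3 of the later) serve below as a separate set of arrays. Whole-uterus RNA was labelled with Cy3 and hybridised to single-channel Agilent 4x44K arrays. A whole uterus mixes luminal and glandular epithelium, stroma, muscle, vessels and immune cells, so fewer cells of a type and less RNA per cell cannot be told apart. The labels name replicates without saying that each was a separate animal, so p-values measure a spread between samples. That spread was estimated over the groups of all 29 arrays.

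In early mouse pregnancy the uterus passes from the estrogen of the preovulatory surge, which drives luminal epithelial growth and secretion, to the rising progesterone of the corpora lutea. Progesterone halts epithelial division, lets stromal cells divide and prepares the lining to receive a blastocyst; in the mouse, implantation follows soon after the later of these time points. Ltf, Muc1 and C3 are widely used markers of the estrogen phase, and Areg, Ihh, Calca and Acod1 of the progesterone phase.

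Levels are given as log2 of the processed intensity minus the log2 of that array's 75th percentile of non-control spots, so 0 is the level of a fairly bright spot; levels are compared within a gene, never between genes. On the 6 arrays, 73.1 to 78.1% of spots were well above the local background and none was saturated. Arrays of the same day correlated at r = 0.978 to 0.989 over all genes (6 pairs) and arrays of different days at 0.971 to 0.980 (9 pairs). GD1.5 array 1 and GD3.5 array 1 shared slide 1, the only slide that held both days of CON. GD1.5 arrays 2 and 3 lay on slide 2, GD3.5 array 2 on slide 3, and GD3.5 array 3 on slide 4, which was scanned separately from the other 3 slides and held no other array used here. Defining markers of uterine tissue were bright on all 6 arrays: Acta2, the smooth muscle actin, at 7.45 to 7.70, the collagen gene Col1a1 at 6.30 to 6.64 and the epithelial keratin Krt18 at 5.42 to 6.11. Markers of sperm, with 5 of 15 genes measurable, and of the early embryo, with 7 measurable, included 1 called gene, Eomes, which natural killer cells also express.

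Some single arrays stood apart in groups of genes. On GD1.5 array 1 the gland proteases Prss28 and Prss29 stood at -8.83 and -5.04, against 3.54 to 5.95 on the other 2 GD1.5 arrays, and the mean of 11 neutrophil genes at -2.19, against 0.24 and 0.53. On GD1.5 array 3 the mean of 21 interferon-response genes was 2.31, against 0.21 to 0.52 on the other 5 arrays. On GD3.5 array 1 the mean of 19 immediate early genes was 2.14, against 0.26 to 0.48 elsewhere. The mean of 9 adipocyte genes was -1.21 on GD1.5 array 1, against -3.29 to -1.91 on the other 5 arrays. Among 8 ovary and oviduct genes, Hsd3b1 stood at -1.66 on GD3.5 array 3, against -8.52 to -5.48 elsewhere. Neither of these 2 lists held a called gene. The part of such arrays in the results was not tested. Values without an array are given where it decides a result.

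The genes that changed most are shown by the 250 bases of RefSeq promoter sequence (GRCm38.p6, read 5′ to 3′ on the gene's strand) that end at the base before the transcription start. Of the 12 largest falls 9 had an entry and of the 12 largest rises 10, and the 3 largest of each with an entry are printed: Kap at chr6:133853668-133853917, Mmp7 at chr9:7691840-7692089 and Upk3bl at chr5:136057017-136057266, which fell, and Areg at chr5:91139349-91139598, Drd4 at chr7:141291768-141292017 and Olah at chr2:3366570-3366819, which rose. Kap and Olah lie on the minus strand and the other 4 on the plus strand. Capitals mark matches to AGGTCA, the half-site of the estrogen receptor, AGAACA, the half-site of the progesterone receptor, and TGACGTCA, the cAMP response element, each on both strands, and to the TATA-box letters TATAAA on the gene's strand. No match overlapped another.
Kap: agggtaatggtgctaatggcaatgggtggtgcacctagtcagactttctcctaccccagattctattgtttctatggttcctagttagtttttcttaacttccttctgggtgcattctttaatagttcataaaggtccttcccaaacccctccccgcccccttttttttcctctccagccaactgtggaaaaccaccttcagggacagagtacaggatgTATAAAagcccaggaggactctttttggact
Mmp7: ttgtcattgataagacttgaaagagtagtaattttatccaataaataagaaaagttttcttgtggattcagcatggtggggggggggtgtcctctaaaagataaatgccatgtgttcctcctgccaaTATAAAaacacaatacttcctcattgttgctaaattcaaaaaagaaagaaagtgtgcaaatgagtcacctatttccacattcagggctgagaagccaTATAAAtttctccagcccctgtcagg
Upk3bl: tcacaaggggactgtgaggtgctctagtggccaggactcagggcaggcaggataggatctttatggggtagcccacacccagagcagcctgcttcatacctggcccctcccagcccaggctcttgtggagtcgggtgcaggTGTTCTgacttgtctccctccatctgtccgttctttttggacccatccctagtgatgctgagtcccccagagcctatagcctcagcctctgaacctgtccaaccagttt
Areg: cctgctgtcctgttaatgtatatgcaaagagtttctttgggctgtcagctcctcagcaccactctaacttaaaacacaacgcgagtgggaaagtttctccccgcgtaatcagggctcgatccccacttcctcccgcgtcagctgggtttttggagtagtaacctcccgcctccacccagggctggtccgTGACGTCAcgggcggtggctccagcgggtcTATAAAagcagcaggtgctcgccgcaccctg
Drd4: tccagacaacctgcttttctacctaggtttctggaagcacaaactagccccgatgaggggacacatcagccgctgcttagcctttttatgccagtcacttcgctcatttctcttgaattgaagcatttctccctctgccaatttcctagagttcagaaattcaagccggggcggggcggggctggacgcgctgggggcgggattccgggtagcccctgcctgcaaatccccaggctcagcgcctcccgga
Olah: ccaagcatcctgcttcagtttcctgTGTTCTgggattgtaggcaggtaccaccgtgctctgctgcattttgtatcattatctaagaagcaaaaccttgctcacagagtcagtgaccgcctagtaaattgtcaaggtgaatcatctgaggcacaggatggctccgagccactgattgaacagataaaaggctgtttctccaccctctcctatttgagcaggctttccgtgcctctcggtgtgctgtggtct
The Areg window held the cAMP response element 61 bases before the start and TATA letters 31 bases before it. In the Kap window the capitals are TATA letters 31 bases before the start, and in the Mmp7 window 123 and 26 bases before it. The Upk3bl and Olah windows each held 1 progesterone receptor half-site, 109 and 225 bases before the start, and the Drd4 window held no match. Most of these runs of letters are common. Among the 32851 promoter windows of the same length, 14.0% held AGGTCA, 16.1% AGAACA and 7.59% TATAAA, and 1.55% held the rarer TGACGTCA. By gene, AGGTCA was found for 43 of 191 called lower genes with an entry (22.5%), 21 of 175 called higher genes (12%) and 15.8% of all 27025 genes. TATAAA was found for 28 of the 191 (14.7%), 15 of the 175 (8.57%) and 8.94% of all. TGACGTCA was found for 3 and 6 of them and 1.77% of all, and AGAACA for 19.4%, 14.9% and 18.2% in the same order. A match is a run of letters and not a site of binding.

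Between GD1.5 and GD3.5, 523 of the 20615 genes tested changed in control uteri at an adjusted p under 0.05 (2.54%; limma, Benjamini-Hochberg), 237 upward (1.15%) and 286 downward (1.39%). The median change of the called genes was 1.34 upward and -1.63 downward on the log2 scale, and the falls reached further: 57 called genes fell by 8-fold or more and 26 rose by that much. The 3 arrays of the days did not overlap for 515 of the 523 called genes, against 4744 of all genes (23%). Days that do not overlap are thus common among genes without a call. Of the called genes 61 are known only by clone or predicted names and are counted here without being named. The median standard error of a change was 0.24, the median change over all genes 0.02, and 11 housekeeping genes had a median change of 0.09 with none called. The number called rests on single arrays, on how slide is treated and on which arrays share the estimate of spread. With only the 6 control arrays in the fit it was 407, and 238 of those were shared with the 523. It was 338, 210 and 282 without GD1.5 array 1, 2 or 3, and 261 and 160 without GD3.5 array 1 or 3. With slide as a fixed block, called slide as a block below, it was 121. That block leaves GD3.5 array 3, the only array of slide 4, without weight in the comparison. With slide as a random block it was 511, 499 of them shared with the 523, at a correlation within slides of 0.050. The direction within slide 1 was the same for 521 of the 523. That pair is among the arrays compared, so the 515 genes without overlap had this direction by construction. Changes of dim genes also rest on the background correction. Under a normexp correction over all spots, whose offset of 50 draws dim signals together, 31 of the 79 named called genes lost their call and many changes shrank; the values are given below beside the genes concerned.

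**Figure D1:**
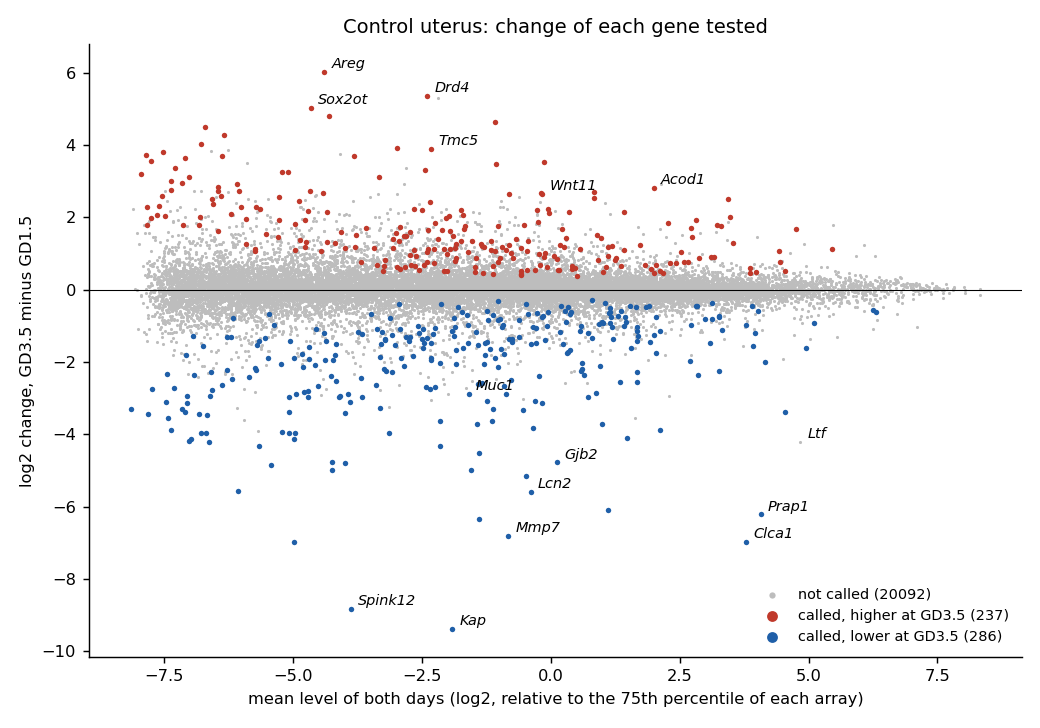
Log2 change from GD1.5 to GD3.5 of each gene tested in control uteri, against its mean level over both days. Blue and red points are the 286 lower and 237 higher genes called; Kap and Spink12 fell furthest, and among the called genes Areg, Drd4 and Sox2ot rose furthest.

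Kap, the kidney androgen-regulated protein gene (probe at chr6:133863381-133863440, mm7), showed the largest fall: it stood at 1.92, 3.47 and 2.96 at GD1.5 and at -5.93, -7.02 and -6.86 at GD3.5. The days were far apart, and the fall was 669-fold (log2 -9.39, SE 1.59, adjusted p = 0.00135, limma), or log2 -6.55 with normexp. Clca1, which encodes a secreted regulator of mucus and chloride transport (chr3:144897653-144897712, mm7), stood at 7.49, 6.94 and 7.40 at GD1.5 and fell to 0.81, 1.19 and -1.09 (126-fold, log2 -6.97, SE 1.67, adjusted p = 0.0240). Its call was lost without any 1 array save GD3.5 array 2 (adjusted p up to 0.139) and with slide as a block (0.366). Prap1, the proline-rich acidic protein of uterine and gut epithelium (chr7:136510833-136510892, mm7), was at 7.24, 7.19 and 7.11 and then at 2.03, 1.36 and -0.50. The 3 GD1.5 arrays lay close together, well above all GD3.5 arrays, and the fall was 74.5-fold (log2 -6.22, SE 0.60, adjusted p = 4.19e-06).

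Mmp7, matrilysin, an epithelial proteinase that activates defensins, stood at 1.00, 3.44 and 3.27 at GD1.5 and -3.81, -3.75 and -5.13 at GD3.5 (112-fold lower, log2 -6.81, SE 0.97, adjusted p = 0.000249). Upk3bl, a uroplakin-like membrane protein, went from 2.02, 1.36 and 1.92 to -4.35, -4.53 and -4.85 (81.0-fold lower, adjusted p = 6.02e-06), and its second probe fell by 5.29. Sftpd, surfactant protein D, a secreted lectin of innate defence, was at 3.54, 3.74 and 5.20 and then at -1.55, -1.01 and -3.22 (68.0-fold lower, adjusted p = 0.000147). In each of these genes all GD3.5 arrays lay below all GD1.5 arrays, which the rule for choosing the largest falls required. Lcn2, lipocalin 2, which binds bacterial siderophores, was at 0.94, 2.38 and 3.89 and then at -2.78, -2.76 and -4.04 (48.4-fold lower, adjusted p = 0.00869), and Aoc1, the histamine- and putrescine-degrading amine oxidase, changed by -5.17 (35.9-fold lower, adjusted p = 0.0121). The calls of Lcn2 and Aoc1 were lost without GD1.5 array 3 or GD3.5 array 3 (adjusted p up to 0.0688 and 0.0904) and with slide as a block (0.171 and 0.238).

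The other 4 of the 12 largest falls were Gsdmc2, a gasdermin, at -4.98, Gabrp, the pi subunit of the GABA-A receptor, at -4.98, Entpd8, an ectonucleotidase, at -4.85, and Gjb2, connexin 26, at -4.78, with adjusted p of 6.75e-05, 0.000284, 0.000228 and 0.00124. Entpd8 was well above background on 1 of 3 GD3.5 arrays and Gsdmc2 on 2 of 3, and with normexp over all spots these changed by -1.22 and -1.99 and were not called (adjusted p = 0.334 and 0.0722). Within slide 1 the 12 changed by -7.85 to -3.26, with the direction fixed because genes whose days overlap were not eligible. With slide as a block 8 of them were also called, all save Kap (limma adjusted p = 0.0695), Clca1, Lcn2 and Aoc1. A further 4 falls are bounds, because no GD3.5 array measured the probe well above background; a bound sets the bright group's mean against the dimmest signal that counts as measured. Spink12, a Kazal-type protease inhibitor, was at least 264-fold lower, Etnppl, a phospholyase of ethanolamine phosphate, at least 65.4-fold, A2ml1, an alpha-2-macroglobulin-like inhibitor, at least 18.8-fold, and G6pc2, a glucose-6-phosphatase, at least 6.94-fold. Their measured means were 0.52, -1.49, -3.29 and -4.73 at GD1.5 and -8.30, -8.48, -8.87 and -8.68 at GD3.5. The call of G6pc2 was lost without GD3.5 array 3 (adjusted p = 0.0639), and with slide as a block those of G6pc2 and Spink12 were lost (0.0695 and 0.0554). These bounds hold for the processed signal alone. With normexp over all spots Spink12 changed by -4.57 and was called (0.00262), but Etnppl at -2.49, A2ml1 at -1.10 and G6pc2 at -0.22 were not (0.102, 0.345 and 0.812). Fitted without spots of high local background, Spink12 (-5.36), Etnppl (-3.32) and A2ml1 (-1.87) were called. G6pc2 (-0.98) was not (limma adjusted p = 0.0781).

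**Figure D2:**
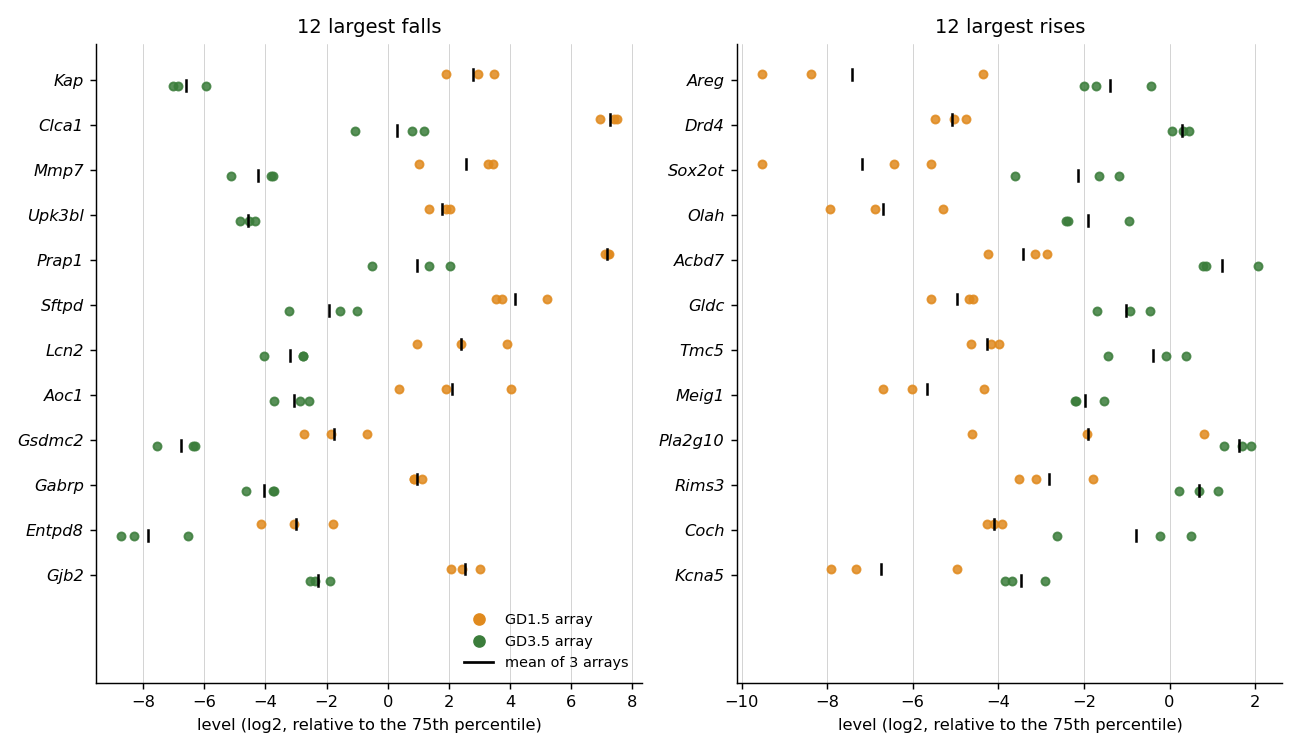
Level on each of the 6 control arrays for the 12 largest falls (left) and 12 largest rises (right) among genes measured on both days, in log2 relative to the array's 75th percentile. Orange points are GD1.5 arrays, green points GD3.5 arrays and bars the mean of 3; the colours do not overlap for any of the 24 genes, which the rule for choosing them required.

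The estrogen-phase epithelial list held 5 called falls and no called rise among 19 genes tested, and its median change was -1.31, against 0.02 for all genes. The falls were in Clca1, Lcn2, Sprr2d, Aqp5 and Muc1. Aqp5, an apical water channel, was at 3.78, 3.13 and 3.66 at GD1.5 and -0.49, -0.46 and -0.77 at GD3.5 (17.2-fold lower, adjusted p = 0.00170). Muc1, the transmembrane mucin that covers the luminal surface, was at -0.12, -0.57 and 0.22 and then at -2.55, -3.23 and -3.32 (7.36-fold lower, log2 -2.88, SE 0.43, adjusted p = 0.000412; -2.43 within slide 1). Neither gene's arrays overlapped between days, and both calls held without each single array and with slide as a block. Sprr2d, a small proline-rich protein of epithelial barriers, stood at -5.06 on GD1.5 array 1 and at -0.17 and -0.33 on the other 2, then at -5.89 to -7.70 (adjusted p = 0.0265), and that call was lost without any 1 array save GD1.5 array 1 (up to 0.160). Without GD1.5 array 1 its change was -6.38 (adjusted p = 0.00223), and with normexp over all spots -2.29 (0.215). Ltf, lactotransferrin, was at 6.85, 6.75 and 7.22 and then at 2.96, 4.16 and 1.08, so the days did not overlap, but its change of -4.21 had an SE of 1.56 and was not called (adjusted p = 0.173). C3, complement component 3, differed by -1.04 and was not called either (adjusted p = 0.293). Over the list 18 of 19 changes were negative. Its count was 3 without GD1.5 array 2 or GD3.5 array 1, and 2 without GD1.5 array 3 or GD3.5 array 3 or with slide as a block. A second list, of other estrogen-responsive genes, showed no such shift. Of its 15 genes tested 2 were called, both lower, with 7 positive and 8 negative changes and a median of -0.05.

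Fluid, mucus and contact genes showed the same direction among their called members. Of 28 water and ion transport genes 4 were called, all lower: Clca1, Aqp5, Cftr, the cAMP-gated chloride channel, and Slc26a9, another chloride transporter, with a median of -0.33 over the list. Cftr went from -1.02, -1.19 and -1.31 to -5.24, -4.61 and -5.53 (15.5-fold lower, adjusted p = 4.19e-06), and Slc26a9 from -2.85, -3.27 and -3.17 to -6.93, -7.35 and -6.88 (15.5-fold lower, adjusted p = 0.000227). Slc26a9 was well above background on 2 of 3 GD3.5 arrays, and with normexp over all spots its change was -1.02 and not called (0.442), while Cftr's was -2.25 (0.00286). Fitted without spots of high local background, Slc26a9 changed by -1.75 and was called (limma adjusted p = 0.000692). The epithelial sodium channel genes Scnn1a, Scnn1b and Scnn1g changed by -0.12, -0.51 and -0.81 and none was called. Of 16 genes of mucins and surface glycans 5 were called, all lower, with a list median of -0.27: Muc4 (23.1-fold, adjusted p = 0.000472), Muc20 (8.51-fold, 0.00914), Muc1, and the glycosyltransferases B3gnt3 (4.12-fold, 0.00888) and Galnt3 (log2 -1.45, 0.0447). Muc4, a large membrane mucin, stood at 0.67, 0.67 and 1.27 and then at -3.89, -3.55 and -3.54. Muc16, another membrane mucin, changed by 0.32 and was not called. Muc20 lost its call without GD1.5 array 3 or GD3.5 array 3 (adjusted p up to 0.0599), the list's count was 3 without either of those arrays, and with slide as a block 2 were called, with Muc20 at 0.0695 and B3gnt3 at 0.149. With normexp over all spots B3gnt3 changed by -0.32 and was not called (0.676). Fitted without spots of high local background, it changed by -0.94 and was called (limma adjusted p = 0.00833).

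Of 28 junction genes 4 were called, all lower, with a list median of -0.44. Among them were the connexin gene Gjb2 (-4.78) and Pkp1, a desmosomal plakophilin, at least 5.05-fold lower. Gjb2 was at 3.02, 2.44 and 2.08 and then at -1.89, -2.38 and -2.53. The list's count was 2 without GD1.5 array 3 and 1, Gjb2, with slide as a block (adjusted p = 0.0869 for Pkp1). With normexp over all spots the change of Pkp1 was -0.024 (0.983) and the list's count was 1. Fitted without spots of high local background, Pkp1 changed by -0.75 and was called (limma adjusted p = 0.00897). Of 22 claudins tested none was called. Among 12 luminal and simple epithelial markers 1 was called, lower; Krt8, Krt18 and Cdh1 changed by -0.45, -0.35 and -0.15. The summed list lay at 1.81 to 2.04 per array at GD1.5 and 1.08 to 1.13 at GD3.5 as a mean level, and its part in the epithelial falls was not tested.

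Of 25 matrix proteinases and inhibitors 4 were called, all lower: Mmp7, Mmp12 (at least 4.17-fold), Mmp10 (8.59-fold, adjusted p = 0.0152) and the stromal proteinase Mmp11 (3.90-fold, 0.0147), with a list median of -0.22. Mmp10 and Mmp11 lost their calls without GD1.5 array 1 or 2 or GD3.5 array 1 or 3 (up to 0.0934 and 0.0956), and the list's count was 1 without GD1.5 array 1 or 2 and 2 without GD3.5 array 1 or 3. With slide as a block only Mmp7 was called. Mmp12, a macrophage elastase, was at -5.92, -5.06 and -5.26 and then at -9.46, -7.17 and -9.74. With normexp over all spots its change was 0.032 (adjusted p = 0.977) and that of Mmp10 -1.32 (0.249), neither called. Fitted without spots of high local background, Mmp12 changed by -0.67 and Mmp10 by -1.98, both called (limma adjusted p = 0.0177 and 0.00535). Of 24 complement genes 3 fell and 1 rose, with a median of -0.25. Cfi, the C3b-cleaving factor I, went from 2.90, 4.39 and 4.86 to 0.20, 0.92 and -0.61 (14.8-fold lower, adjusted p = 0.00797), Cfb, factor B of the alternative pathway, from 5.41, 6.41 and 6.87 to 2.92, 3.30 and 2.32 (10.4-fold, 0.0383), and Hc, which encodes C5, by -1.85 (0.0192). C1s1, of the classical pathway, rose by 1.28 (0.0312). The number called was 2 without GD1.5 array 1 or GD3.5 array 1 or 2, and 1 without GD1.5 array 2 or 3. None of these 4 calls held without GD3.5 array 3 or with slide as a block (adjusted p of 0.149, 0.406, 0.616 and 0.475 with the block), and Hc was not called with normexp over all spots (0.358).

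**Figure D3:**
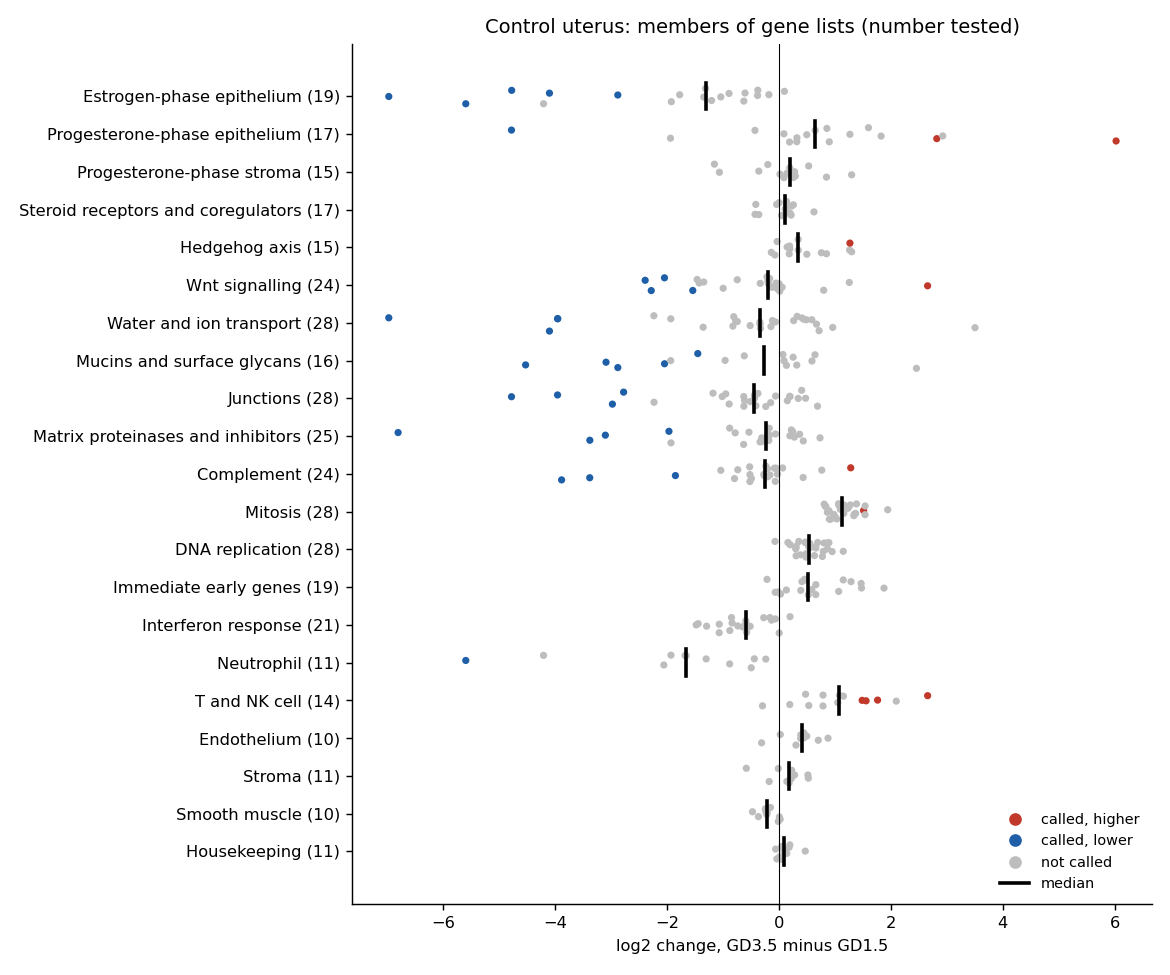
Log2 change of each member tested in 21 gene lists, with the number tested in brackets; red and blue points are called rises and falls, grey points were not called and bars are list medians. Called members of the fluid, mucin, junction and proteinase lists are all blue, with uncalled members on both sides of 0. The 28 mitosis genes all lie right of 0 with 1 called, and the 4 called T and natural killer cell genes are red.

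The largest rise by processed signal was in Areg, amphiregulin, an EGF-receptor ligand and a classical progesterone-induced gene of the luminal epithelium (probe at chr5:91129331-91129390, mm7). It stood at -4.35, -8.38 and -9.52 at GD1.5, where 1 of 3 arrays was well above background, and at -0.44, -2.01 and -1.72 at GD3.5 (65.2-fold higher, log2 6.03, SE 1.34, adjusted p = 0.0150). The days did not overlap, which the rule for choosing the largest rises required. The call was lost without GD1.5 array 2 or 3 or GD3.5 array 1 or 3 (up to 0.0999) and with slide as a block (0.304), and the difference within slide 1 was 3.91. Its size rests on GD1.5 signals that were mostly not measured: the normexp corrections gave log2 3.05 over all spots and 2.96 without spots of high local background, both called (0.00673 and 0.00282). Of 12 EGF-family genes only Areg was called.

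Drd4, the D4 dopamine receptor, showed the steadiest large rise: -4.75, -5.03 and -5.48 at GD1.5 and 0.32, 0.47 and 0.06 at GD3.5 (41.2-fold higher, log2 5.37, SE 0.79, adjusted p = 0.000351), with 6.30 at its second probe. Acbd7, an acyl-CoA-binding protein, went from -2.86, -3.15 and -4.23 to 0.78, 2.06 and 0.85 (24.9-fold, adjusted p = 0.000266), and Tmc5, a transmembrane channel-like protein, from -4.64, -4.18 and -3.99 to -0.08, 0.39 and -1.45 (14.8-fold, 7.81e-05). These 3 genes kept their calls without each single array and with slide as a block. Gldc, the glycine decarboxylase of the glycine cleavage system, rose 15.2-fold (adjusted p = 0.000565; 0.0515 with slide as a block). Sox2ot, the long noncoding RNA that overlaps Sox2, rose 32.8-fold (0.00612) and Olah, a thioesterase that releases medium-chain fatty acids, 27.7-fold (0.00726); both calls were lost without GD1.5 array 3 (0.0547 and 0.0522). Each was well above background on 2 of 3 GD1.5 arrays, and with normexp over all spots they rose by 2.73 and 2.79 on the log2 scale and were called.

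The other 5 of the 12 were Meig1, a spermiogenesis gene (log2 3.70), Pla2g10, a secreted phospholipase A2 (3.53), Rims3, of the presynaptic release machinery (3.48), Coch, cochlin (3.31), and Kcna5, a voltage-gated potassium channel (3.25). Pla2g10 was at 0.81, -1.92 and -4.61 at GD1.5 and 1.68, 1.91 and 1.27 at GD3.5; the spread lay on the earlier day. Its call (adjusted p = 0.0403) was lost without any 1 array save GD1.5 array 1 (up to 0.251), that of Coch (0.0193) without any 1 array save GD3.5 array 2 (up to 0.123), and that of Kcna5 (0.0367) without any save GD1.5 array 3 (up to 0.185) and with normexp over all spots (1.48, 0.0823). Within slide 1 the 12 rose by 0.88 to 5.07, a direction fixed by the same rule of no overlap. With slide as a block 4 were called, namely Drd4, Acbd7, Tmc5 and Sox2ot. Bounds upward were at least 8.28-fold for the F-box gene Fbxw14, 6.54-fold for Nr0b1, the orphan nuclear receptor DAX1, 5.57-fold for Sele, E-selectin, and 4.73-fold for Glod5, from means of -8.95, -8.80, -7.87 and -8.92 at GD1.5 to -4.46, -4.77, -5.04 and -5.27. Sele lost its call without GD1.5 array 1 (adjusted p = 0.0652), and Sele and Glod5 lost theirs with slide as a block (0.115 and 0.0699). These bounds too hold for the processed signal alone. The normexp corrections gave log2 changes of 1.32 and 1.03 for Fbxw14, 1.36 and 0.91 for Nr0b1, 1.21 and 0.73 for Sele and 1.20 and 0.77 for Glod5. In the first, over all spots, none was called (0.135, 0.135, 0.134 and 0.210). In the second, without spots of high local background, Fbxw14, Nr0b1 and Sele were called (limma adjusted p = 0.00146, 0.0301 and 0.0173) and Glod5 was not (0.0660).

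Genes of the progesterone phase moved less uniformly. Of 17 epithelial ones 2 rose, Areg and Acod1, and 1 fell, Gjb2, with a median of 0.65. The count of 3 was 1 without GD1.5 array 2 or 3 or GD3.5 array 1 or 3, and with slide as a block. Acod1, also called Irg1, which makes itaconate and marks the receptive luminal epithelium, was at -0.09, 0.85 and 1.00 and then at 2.97, 3.84 and 3.41 (7.07-fold higher, log2 2.82, SE 0.73, adjusted p = 0.0385). The days did not overlap, and the call was lost without any 1 of the 6 arrays (up to 0.138) and with slide as a block (0.524). Il13ra2, a decoy receptor for IL-13, changed by 1.83 and just missed the threshold (adjusted p = 0.0553), and Lrp2, megalin, by 2.93 (0.0708). Hdc, which makes histamine, stood at 4.26, 4.33 and 4.28 and then at 5.39 to 5.67; its days were tightly grouped and apart, but with the spread shared over all groups its change of 1.27 had an SE of 0.58 and was not called (adjusted p = 0.309). Calca, which encodes calcitonin, ran from -4.12 to 1.91 at GD1.5 alone, and its change of 1.60 was not called (0.50). Ihh, the epithelial hedgehog ligand, was at 0.45, -0.35 and -1.85 and then at -0.42, -0.23 and -0.52 (0.19, adjusted p = 0.967), Cyp26a1, which clears retinoic acid, changed by 0.86 and Spp1, osteopontin, by -1.94; none was called and the days overlapped in all 3.

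On the stromal side none of 15 progesterone-phase genes was called, with a median of 0.19. Nr2f2, the COUP-TFII factor downstream of hedgehog, changed by 0.19, Hand2 by 0.28, Hoxa10 by 0.29, Msx1 by -0.20 and Fkbp5, a glucocorticoid- and progesterone-responsive chaperone, by 0.09. Among 15 hedgehog genes 1 was called, higher. Ptch1, the main receptor and itself a hedgehog target, was at -3.49, -3.45 and -4.11 and then at -2.85, -2.35 and -1.95, apart but not called (1.30, adjusted p = 0.110), and Gli1 changed by 0.85 (0.187). The list median was 0.35. The receptors themselves differed by less than their standard errors: Esr1 was at 2.22, 2.48 and 2.50 and then at 2.05, 2.76 and 2.54 (0.05, SE 0.20), and Pgr at -1.42, -1.43 and -1.46 and then at -1.35, -1.86 and -1.22 (-0.04, SE 0.21). Of 17 steroid receptors and coregulators none was called, and the sign of both small differences turned under another background correction, with the mean of probes and without GD3.5 array 2.

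**Figure D4:**
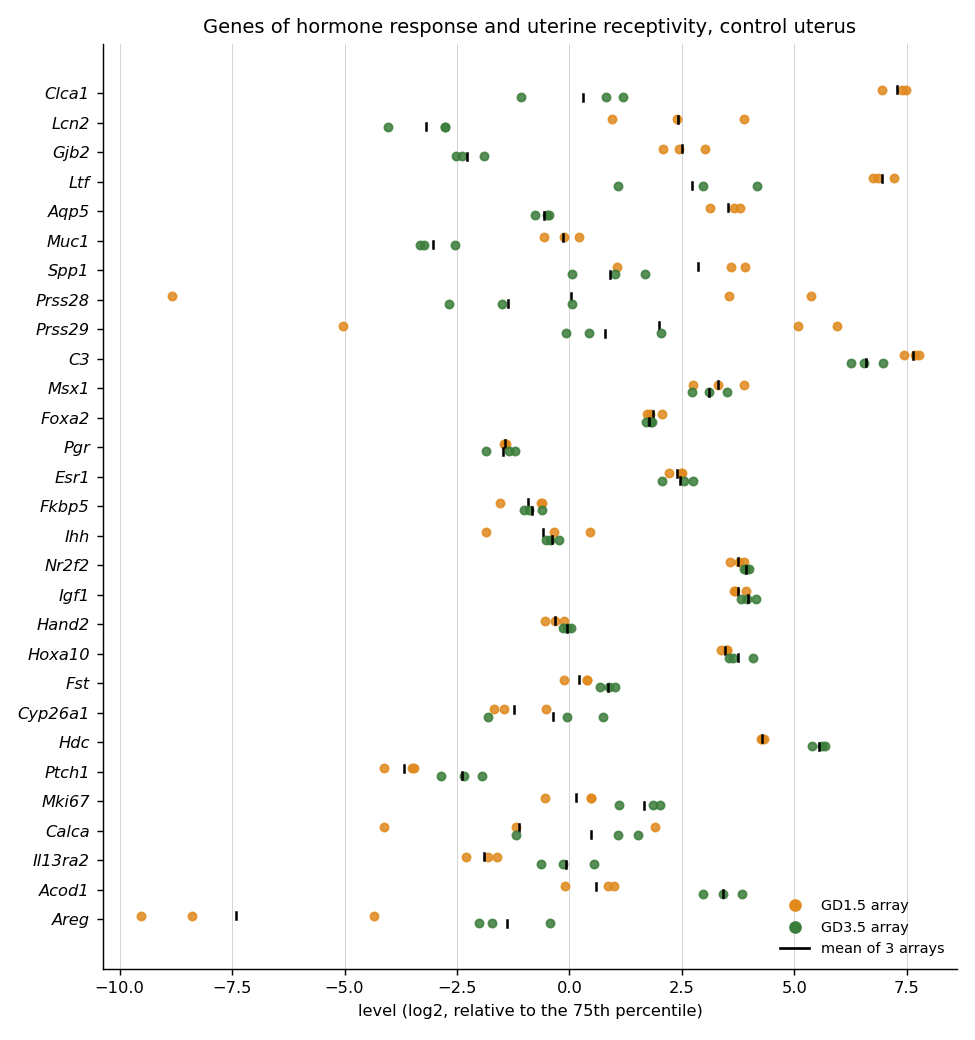
Level on each of the 6 control arrays for 29 genes of hormone response and receptivity, sorted by change, in log2 relative to the array's 75th percentile; orange is GD1.5, green GD3.5 and bars are means of 3. Esr1, Pgr and Foxa2 overlap between days, Muc1, Aqp5 and Acod1 do not, and the Prss28 and Prss29 points of GD1.5 array 1 lie far left of the others of that day.

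Wnt genes split by member. Of 24 tested 4 fell and 1 rose, with a median of -0.19. Wnt11, a ligand of non-canonical signalling, rose from -2.01, -1.17 and -1.32 to 0.98, 1.34 and 1.15 (6.31-fold, log2 2.66, SE 0.44, adjusted p = 0.00110), and this call held without each single array and with slide as a block. Wnt2, a stromal ligand, fell by 1.54 (adjusted p = 0.000320), Fzd10, a frizzled receptor, by 2.39 (0.00950), Wnt7b by 2.28 (0.0355) and Wnt4, known for its part in the decidual response, by 2.05 (0.0349). The Fzd10 call was lost without GD1.5 array 2 (0.0550), and those of Wnt7b and Wnt4 without any 1 of the 6 arrays (up to 0.130 and 0.166). The list's count was 3 without GD1.5 array 1 or any GD3.5 array, 2 without GD1.5 array 2 and 3 with slide as a block. With normexp over all spots it was 3, without Wnt7b (0.315) and Wnt4 (0.0975). Wnt7a, of the luminal epithelium, changed by -1.34 and Wnt5a by 0.06, and neither was called.

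Cell cycle genes held 1 called gene, with changes of one sign among those of mitosis. All 28 mitosis genes had a positive change, with a median of 1.13 (lowest 0.81, highest 1.94), and 27 had an unadjusted p under 0.05; over all genes tested 53.2% of changes were positive and 14.2% had an unadjusted p under 0.05. Only Mki67, the proliferation antigen, was called: it was at -0.54, 0.49 and 0.47 and then at 2.00, 1.11 and 1.86 (2.85-fold higher, SE 0.40, adjusted p = 0.0431). That call was lost without any 1 array save GD3.5 array 2 (up to 0.191) and with slide as a block (0.230) or normexp over all spots (0.0817). By array, the mean of the list was -2.69, -1.63 and -1.58 at GD1.5 and -0.37, -1.54 and -0.50 at GD3.5, so GD3.5 array 2 lay close to 2 of the GD1.5 arrays. Without GD3.5 array 2 the median was 1.49 with 8 called, and without GD1.5 array 1 it was 0.78 with none called. Within slide 1 the median difference was 2.34. Of 28 DNA replication genes 27 changes were positive (median 0.54) and none was called. The 19 immediate early genes had a median of 0.52 with none called: Fos stood at 1.51 on GD3.5 array 1 and at -1.98 and -1.15 on the other GD3.5 arrays, against -2.53 to -2.30 at GD1.5. Without that array the list median was 0.09.

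Several genes of natural killer cells rose. Of 14 T and natural killer cell markers 4 were called, all higher, with a median of 1.07: Gzma, granzyme A (6.31-fold, adjusted p = 0.0120), Prf1, perforin (3.40-fold, 0.0499), Eomes, a transcription factor (2.94-fold, 0.0289), and Ncr1, the NKp46 receptor (2.80-fold, 0.0327). Gzma was at -2.14, -2.53 and -1.78 and then at -0.07, 0.87 and 0.72, and Gzmb at -1.13, -1.02 and -1.82 and then at 0.69, 0.38 and 1.25, without a call (adjusted p = 0.0512). The days did not overlap for either gene. The T cell genes Cd3e, Cd3d, Cd3g, Cd4, Cd8a and Lck changed by 0.19, 0.53, 0.79, -0.29, 0.48 and 0.79 and none was called. For Lck the days did not overlap, as for 23% of all genes, at -0.54 to -0.21 and then at 0.24 to 0.61. The mean of the list was -2.29 to -1.94 at GD1.5 and -1.19 to -0.90 at GD3.5. Gzma lost its call without GD1.5 array 2 or GD3.5 array 3 (up to 0.0745), Eomes without any 1 array save GD1.5 array 3 (up to 0.170), and Prf1 and Ncr1 without any 1 of the 6 (up to 0.191 and 0.170); with slide as a block none of the 4 was called. The list's count was 2 without GD1.5 array 3, none without GD1.5 array 2 or GD3.5 array 3 and 1 without each of the others. With normexp over all spots it was 3, without Prf1 (0.0562).

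Other immune lists followed single arrays. All 11 neutrophil genes had a negative change (median -1.66), of which Lcn2, also an epithelial gene, was called. S100a9, a calprotectin subunit of neutrophils, stood at -2.24, 3.76 and 4.41 and then at 0.68, 0.94 and -0.66: the 2 high GD1.5 arrays were arrays 2 and 3, and array 1 lay below every GD3.5 array. Without GD1.5 array 1 the list median was -2.89 and without GD1.5 array 3 it was -0.64, with 2 and no members called. The 21 interferon-response genes had a median of -0.59 with none called, and without GD1.5 array 3 the median was 0.04. Macrophage, eosinophil and mast cell, and B cell lists held 1 call, Kit (1.11, adjusted p = 0.0483), a stem cell factor receptor whose arrays overlapped between days and whose call was lost without GD1.5 array 1 or 3 or GD3.5 array 1 or 3 (up to 0.232). Il6, the interleukin, rose by 2.28 (0.0234; lost without any 1 array save GD3.5 array 3, up to 0.123; 3.35 with slide as a block, adjusted p = 0.00363; 1.32 with normexp over all spots, 0.0697), and the chemokine genes Cxcl14 and Cxcl17, both of mucosal epithelium, fell by 2.36 (0.00334) and 2.28 (0.0181). With slide as a block these were at 0.0590 and 0.115, and Cxcl17 lost its call without GD1.5 array 3 or GD3.5 array 2 or 3 (up to 0.107).

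Gland genes were not settled by these arrays. Prss28 and Prss29, implantation serine proteases made by the glands, stood at -8.83, 3.54 and 5.36 and at -5.04, 5.08 and 5.95 at GD1.5, and at 0.06, -2.68 and -1.49 and at 2.03, -0.07 and 0.45 at GD3.5. The changes of -1.40 and -1.20 were not called (adjusted p = 0.901 and 0.885), since the day's arrays ran on both sides of GD3.5. Without GD1.5 array 1 they were -5.82 and -4.72 (0.0338 and 0.0272), and within slide 1, which holds that array, 8.88 and 7.07. Foxa2, the gland-defining transcription factor, was at 2.05, 1.71 and 1.79 and then at 1.83, 1.80 and 1.70 (-0.07). Of 10 gland markers only Aldh1a1, a retinaldehyde dehydrogenase, was called (3.40-fold lower, adjusted p = 0.0107), and without GD1.5 array 2 or GD3.5 array 3 it was not (up to 0.0745; 0.294 with slide as a block).

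Lists of metabolism and signalling held few calls. Crabp1, a retinoic acid carrier, rose 6.38-fold (adjusted p = 0.0180); the glucose transporter Slc2a3 rose 3.81-fold (0.0465) and Aldoc, an aldolase, fell 4.39-fold (0.0147). Ptger4, the EP4 prostaglandin receptor, rose 1.62-fold (0.0258) and Pgf, placental growth factor, 2.12-fold (0.0269). Paox, a polyamine oxidase, was at 4.62, 4.53 and 4.55 and then at 3.39, 3.39 and 3.32 (2.30-fold lower, 0.0145), the calcium channel Trpv6 fell 8.85-fold (0.0193), Igfbp2 8.42-fold (0.0367), Tnc, tenascin C, 2.78-fold (0.0102) and Krt20 6.24-fold (0.0339). Each of these 10 calls was lost without at least 1 single array (adjusted p up to 0.260), GD3.5 array 3 among them for all save Tnc, and only Tnc kept its call with slide as a block (0.0303). With normexp over all spots Tnc (0.0520), Ptger4 (0.0710), Slc2a3 (0.0714), Igfbp2 (0.102) and Krt20 (0.258) were not called. The FGF, BMP and activin, Hox, circadian clock, ribosome, unfolded protein, G1 cyclin and MHC class II lists held no called gene, with medians from -0.03 to 0.24.

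Families of genes with a shared name stem, some of whose members lie side by side in the genome, were looked at after their values were seen. Of 4 gasdermin C genes 3 fell, Gsdmc2 and its neighbours Gsdmc (-2.70, adjusted p = 0.00260) and Gsdmc3 (-2.70, 0.00167), while Gsdmcl1 changed by 0.27. Of 9 F-box genes of the Fbxw13 to Fbxw29 series 4 rose, Fbxw14, Fbxw26 (at least 3.76-fold), Fbxw18 (2.51) and Fbxw27 (1.93), and the other 5 lay between -0.04 and 0.41. Relaxin, Rln1, went from -4.09, -4.81 and -5.82 to -1.87, -1.24 and -2.22 (log2 3.13, adjusted p = 0.000715), and its neighbour Insl6 rose by 2.15 (0.00170); Insl3, Insl5 and Rln3 changed by 0.00 to 0.14. Among the members not called, Fbxw17, Insl3, Insl5 and Rln3 lie on other chromosomes than the called members. Near-identical copies in these families can share a probe's signal.

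The same 2 days in genistein-exposed uteri gave a second set of arrays that shares no sample with the control comparison. There 1039 of 20395 genes were called (5.09%), 529 higher and 510 lower. Of the 523 genes called in controls 512 had a GEN value, and 507 of them (99.0%) changed in the same direction, against 74.0% of all genes; 337 were called in GEN as well. The shared calls are 64.4% of the control calls and 32.4% of the GEN calls. All 12 of the largest control falls were called in GEN, Kap at -8.26, Prap1 at -8.17 and Mmp7 at -7.65 among them, and 9 of the 12 largest rises, Areg at 5.44 and Drd4 at 3.88 among them; Coch, Kcna5 and Pla2g10 were not. The 5 with the opposite sign in GEN, none of them called there, included Prr5l and Steap4. The median size of change of the called genes was 1.47 in CON, where they were chosen, and 1.15 in GEN. In the test of the difference itself, CON change minus GEN change, 0 of 21063 genes were called by limma (0%), 509 had an unadjusted p under 0.05 and the smallest adjusted p was 0.9998. With only the 13 arrays of these days in the fit 1 gene was called, and with array weights estimated gene by gene 80 were, so no change is called particular to controls.

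**Figure D5:**
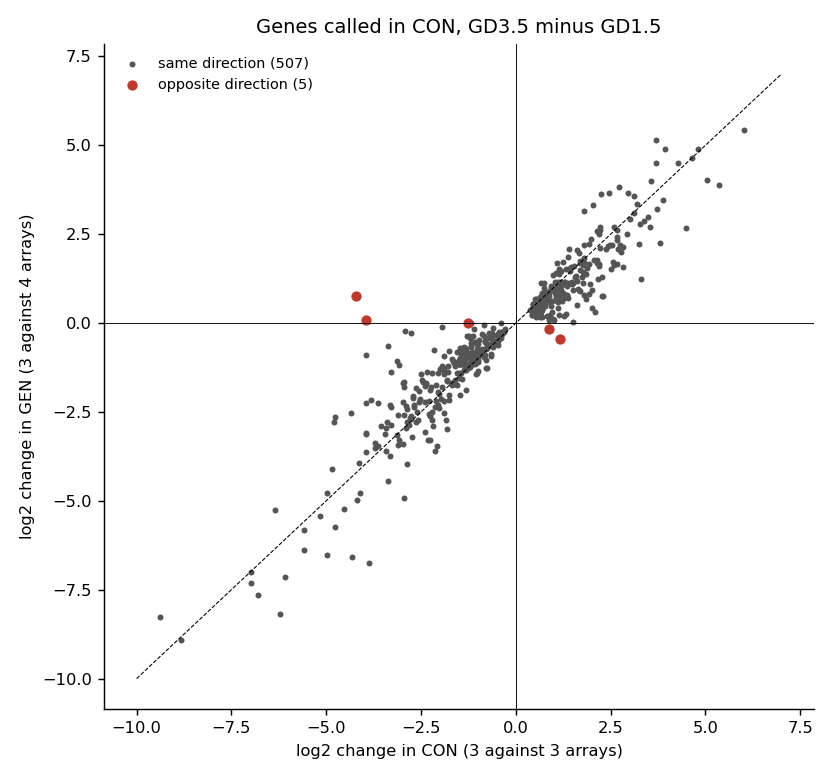
Log2 change from GD1.5 to GD3.5 in GEN (3 against 4 arrays) against that in CON (3 against 3 arrays) for the 512 genes called in CON that had a GEN value; the dashed line marks equal change. Of these, 507 lie in the 2 quadrants of equal sign and 5, in red, do not.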

How the data were processed

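The samples were grouped by gestation day and exposure as their titles give them, CON at GD1.5 and GD3.5 (3 arrays each). The deposited files are scanner output of single-channel arrays, and their processed intensity per spot had its background subtracted by the authors with Agilent Feature Extraction 9.5, per the submitters' processing notes. From the deposited intensity, log2 was taken here and each array's 75th percentile over the 43379 non-control spots subtracted. Outlier spots were left out and repeated spots averaged. Of 41174 probes 22951 were named through RefSeq by accession, 6659 by symbol and 3109 by synonym, and 8455 keep the file's name. For the 8914 of 27670 gene names with several probes the brightest was used, and it had to be well above background on at least 3 of the arrays compared. Number of arrays, not read depth, limits precision here.

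Group means were fitted over all 29 arrays with limma 3.58.1 in R 4.3.3, so all groups share one estimate of spread, and p-values were adjusted by Benjamini-Hochberg over all genes tested, with 0.05 as the threshold. On simulated data with the same arrays, 52, 80, 90 and 94% of genes changed by 1, 1.5, 2 and 3 on the log2 scale were called. Each size had 50 genes. Whether these rates hold for the measured arrays, where slide and day overlap except on slide 1, was not tested. Named genes are the 12 largest rises and falls whose arrays do not overlap, up to 4 bounds each way, 30 genes of hormone response and up to 4 called genes per list; others are named as list or family members, or were chosen after their values were seen. The members, the 56 gene lists (908 genes, 840 of them tested) and the promoter motifs were chosen with earlier results of these data known, and TATAAA and TGACGTCA after the sequences were seen. Coordinates of probes are those of the files (mm7). Alternatives tried were normexp background, quantile or median scaling, other filters on dim probes, the mean of probes, slide or replicate number as a block, fewer arrays in the fit, array weights, a variance trend, a 2-fold minimum and leaving out each array. Lif had no probe here and was not analysed. A few called genes are counted but not reported here. The default algorithm for array weights did not converge, so they were estimated gene by gene, a choice made after seeing the data.

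Same-numbered arrays of the days correlated, in their deviations from the group means, at 0.12, 0.10 and 0.03.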

Additional observations from a re-analysis of the deposited data

Results flagged for a closer look

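Among the arrays set beside the controls, Esr1 stood at 2.48 on GEN GD1.5 array 4, while the other 3 GEN GD1.5 arrays lay between 2.10 and 2.13. That array's gap to its neighbour was 0.917 of the group's range, above Dixon's critical value for a group of 4. Chance puts about 1 in 20 groups past that limit. The 3 control arrays of that day, at 2.22 to 2.50, are too few for the same rule.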

How the results depend on the processing

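The count of 523 called control genes (45.3% higher) was 245 with normexp over all spots (55.1% higher, with the median of all genes at 0.15). Normexp fitted without spots of high local background gave 701 (456 shared). Slide as a fixed block gave 121 (34.7% higher, 108 of them shared) and slide as a random block 511 (499 shared). The count was 407 with only the 6 control arrays in the fit (238 shared) and 1019 with only the 13 arrays of both days (421 shared). It was 3236 with array weights (521 of the 523 shared). It ran from 160 to 411 when single control arrays were left out, lowest without GD3.5 array 3. The replicate block gave 498; the numbers do not pair the arrays. The count of genes differing between CON and GEN, 0 in the fit used, was 1 with the 13 arrays, 80 with array weights and 0 to 1 when single arrays were left out (1 without GEN GD1.5 array 3 or GEN GD3.5 array 1). The share with the same sign in GEN ran from 93.5 to 100%. The cause of these shifts was not tested.

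Of the 79 named genes that were called, 15 kept their call under every alternative run and 26 with slide as a block. Without some single array 46 lost it, and with normexp over all spots 31 did. All 79 had the same sign within slide 1, which is fixed in advance wherever the days do not overlap. Signs turned for Mmp12 with normexp over all spots (0.032), and for genes with small changes. Esr1 was at -0.011 and Pgr at 0.037 with normexp over all spots, at -0.047 and 0.092 with the mean of probes, and Esr1 at -0.052 with slide as a block. With slide as a block Prss28 was at 1.12 and Prss29 at 0.95, and with array weights Foxa2 was at 0.012 and Fkbp5 at -0.10. Without single arrays Esr1 ran from -0.11 (without GD3.5 array 2) to 0.25, Pgr from -0.17 to 0.15 (GD3.5 array 2), Ihh from -0.44 (GD1.5 array 3) to 0.71, Msx1 from -0.48 to 0.083 (GD1.5 array 1), Foxa2 from -0.14 to 0.026 (GD1.5 array 1), Fkbp5 from -0.22 (GD1.5 array 1) to 0.25, Prss28 from -5.82 (GD1.5 array 1) to 1.27 (GD1.5 array 3) and Prss29 from -4.72 (GD1.5 array 1) to 0.78 (GD1.5 array 3). The cause was not tested. With 3 arrays a day, the slide and the day overlap except on slide 1, and signals not well above background give bounds only.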

Other observations

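Natural killer cell receptors of the Klr family were looked at after their values were seen. Of 30 tested, 2 were called higher and none lower, against 1.15% and 1.39% of all genes tested, with a median change of 1.10. The 2 were Klrg1, an inhibitory receptor, at 2.20 (SE 0.49, limma adjusted p = 0.0152) and Klre1 at 1.60 (adjusted p = 0.0340). Some members followed single arrays, such as Klra10, at -4.35, -5.57 and -0.01 at GD1.5. Klrg1 was also called in GEN, at 2.51, and Klre1, at 1.19, was not. The GEN changes of the family had both signs and ran from -2.05 for Klra2 to 2.51 for Klrg1. Members of this family are near-identical in places and can share a probe's signal.

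Of the 508 called genes with a probe position (mm7), 6 runs of 3 or more lay within 100000 bases of each other, and in 4 of them all called genes changed in 1 direction. At chr2:3258143-3326387 all 3 genes tested rose: Acbd7, Olah and Meig1, which are among the 12 largest rises. At chr7:136510833-136548119 Prap1 fell together with Paox, a polyamine oxidase, and Fuom, a fucose mutarotase, 3 of 4 genes tested. At chr19:3788621-3875868 Chka, choline kinase alpha, and the aldehyde dehydrogenases Aldh3b1 and Aldh3b2 fell by 0.63, 0.75 and 0.78, 3 of 7 tested, and at chr15:63852593-63934305 the gasdermins fell, 3 of 5 tested. At chr9:109372486-109523059 the F-box genes Fbxw18, Fbxw26 and Fbxw27 rose and Spink8, a protease inhibitor, fell by 2.86. Whether such runs are more common than in other gene sets was not tested.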
